A study of Mus musculus with 40 samples.

Results

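In the transcript assembly of mouse oocytes deposited with the series, some loci lie on the opposite strand to the annotated gene they overlap. These antisense loci were selected on the autosomes by a mean of at least 2 over the 6 control libraries on the log2 scale, which is 4 reads in a library scaled to 1000000 (RPM). Of the 6129 autosomal antisense loci 2134 (34.8%) met that level and 3995 did not, in a table of 38540 loci. The 2134 loci are annotated to 2041 genes. The control levels therefore chose the loci, and they are given below as a description.

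The RNA came from germinal vesicle oocytes, the fully grown oocytes held before meiotic maturation, of mice aged 22 to 25 days. Oocytes were dissected by hand and pooled, 100 to 200 per sample. The genotypes were Control, G9a cKO (conditional deletion of G9a) and G9a-Glp cDKO (conditional deletion of G9a and Glp, cDKO below). Sample titles divide the RNA libraries into a GKAO series, with 3 control and 3 G9a cKO libraries, and a GKAQ series, with 3 control and 2 cDKO libraries. Each mutant was compared with the controls of its own title series. The Cre line that drives the deletions, the strain and the genotype of the controls beyond the word Control are not given in the sources used here. No label says that the libraries of a group came from separate mice, so p-values measure the spread between these samples, which may be technical. In RNA from pooled oocytes, fewer cells with a transcript and less RNA per cell cannot be told apart.

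Antisense transcription arises in several ways. A neighbouring gene may be transcribed from the same promoter region in the other direction, or may run past its end into a gene that converges on it, or a promoter inside a gene may fire against the gene. Where RNA of both strands pairs, mouse oocytes can process the double strand with Dicer into endogenous small interfering RNAs, which makes antisense RNA of particular interest in this cell. At imprinted genes, long antisense RNAs such as Airn and Nespas are known for silencing in cis. G9A (gene Ehmt2) and GLP (gene Ehmt1) are the enzymes that add the dimethyl mark to lysine 9 of histone H3 (H3K9me2), found on repressed chromatin.

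The name "antisense" was first checked against the annotation. RefSeq genes (GRCm38.p6) were matched to each locus on its own strand, requiring that at least 50% of the locus or of the gene be covered. A gene on the same strand as the locus was found for 1432 of the 2134 loci (67.1%), of which 1218 were protein-coding, 212 long noncoding and 1 a pseudogene. Another 266 loci (12.5%) matched a RefSeq gene whose strand is not known from the tables at hand. Only 436 loci (20.4%) matched no RefSeq gene. Most of the loci thus match a neighbouring annotated gene and reach into the gene they are named after, and below the gene on the locus's own strand is given with the name. The 436 loci with no match were lower, with a median control level of log2 RPM 3.59 against 5.06 for the loci with a gene of their own, and shorter, with a median length of 7802.5 against 23460 bases.

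The position of the locus relative to the annotated gene differed in the same way. It could be determined for the 1771 loci whose annotated gene matched RefSeq. A head-to-head arrangement, with the locus starting inside the gene and ending outside it, was found for 601. A tail-to-tail arrangement, with the locus ending inside the gene, was found for 687, while 385 lay wholly inside the gene and 98 covered all of it. Among the loci with no matching gene, 234 lay wholly inside. These loci had a median of 100% of their length within the annotated gene, against 4.75% for the loci with their own gene.

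**Figure D1:**
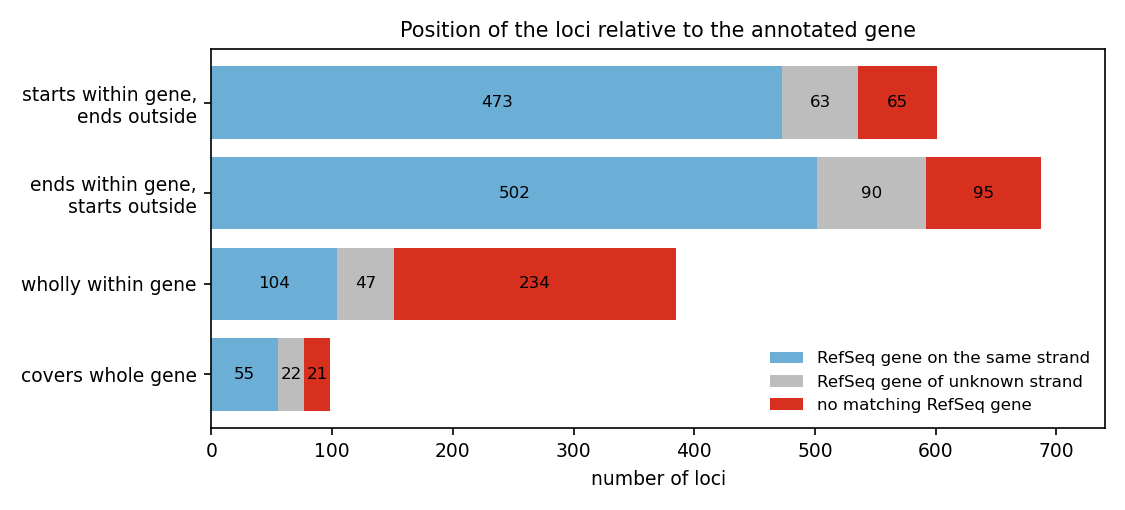
Number of antisense loci (x axis) by their position relative to the annotated gene (y axis), divided by whether a RefSeq gene on the same strand, a RefSeq gene of unknown strand or no RefSeq gene matched the locus. Loci with their own gene dominate the first 2 arrangements, 473 and 502 loci, and loci with no match dominate the loci wholly within a gene, 234 of 385.

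Many of the loci start where another gene starts. RefSeq promoter windows, 250 bases before to 50 bases after a gene's start, held the start of 779 loci (36.5%) on their own strand and of 282 (13.2%) on the other strand, 200 of them in windows of both kinds. The windows that held such a start had a median of 23 CpG dinucleotides, against 7 over all 32851 windows. That comparison was not matched for expression, and windows at the starts of sense loci were not examined. Of the 461 head-to-head loci with a sense locus, 279 (60.5%) started within 1000 bases of the sense locus's start, with a median distance of 616 bases over all 461. Only 8 of the 436 loci with no matching gene (1.83%) started in a window on the other strand.

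The 5 windows below are shown from RefSeq, GRCm38.p6, because the start of an antisense locus lies in the window in 4 of them, which belong to loci among the 8 with the highest level, and just past the end of the window at Tbc1d22a, a locus with a large fall in cDKO. Each is written 5′ to 3′ on the strand of the window, in lower case, with the bases covered by loci of both strands in capitals. Named by the annotated gene, they are Tmem129 (Tacc3 window, chr5:33657878-33658177, plus strand), Txndc9 (Txndc9 window, chr1:37997159-37997458, minus strand), Gm16832 (Uchl1 window, chr5:66675871-66676170, plus strand), Gm12279 (Ubb window, chr11:62550921-62551220, plus strand) and Tbc1d22a (Tbc1d22a window, chr15:86214209-86214508, plus strand).
Tmem129: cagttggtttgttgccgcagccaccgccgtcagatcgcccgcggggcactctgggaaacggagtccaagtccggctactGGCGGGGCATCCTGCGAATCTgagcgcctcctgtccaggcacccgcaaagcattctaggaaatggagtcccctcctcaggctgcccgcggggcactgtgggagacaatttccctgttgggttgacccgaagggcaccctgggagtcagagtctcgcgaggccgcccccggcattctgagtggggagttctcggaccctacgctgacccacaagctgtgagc
Txndc9: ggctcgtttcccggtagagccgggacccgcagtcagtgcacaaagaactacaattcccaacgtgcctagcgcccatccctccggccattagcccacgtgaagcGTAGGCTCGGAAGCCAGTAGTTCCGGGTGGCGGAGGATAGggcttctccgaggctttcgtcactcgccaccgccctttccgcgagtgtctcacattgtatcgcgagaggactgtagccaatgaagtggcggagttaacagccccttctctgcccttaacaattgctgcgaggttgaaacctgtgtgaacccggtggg
Gm16832: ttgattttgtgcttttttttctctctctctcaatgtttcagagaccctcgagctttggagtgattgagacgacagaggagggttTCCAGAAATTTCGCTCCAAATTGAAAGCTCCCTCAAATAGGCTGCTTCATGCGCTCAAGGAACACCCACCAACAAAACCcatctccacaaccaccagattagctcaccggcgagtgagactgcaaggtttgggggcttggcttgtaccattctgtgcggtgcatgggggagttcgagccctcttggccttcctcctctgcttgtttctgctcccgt
Gm12279: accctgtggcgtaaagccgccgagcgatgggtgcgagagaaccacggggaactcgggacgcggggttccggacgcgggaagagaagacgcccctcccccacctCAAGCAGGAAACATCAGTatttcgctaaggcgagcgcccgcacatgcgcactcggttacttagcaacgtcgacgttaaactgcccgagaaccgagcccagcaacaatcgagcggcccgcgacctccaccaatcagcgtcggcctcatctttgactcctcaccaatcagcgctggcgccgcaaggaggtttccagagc
Tbc1d22a: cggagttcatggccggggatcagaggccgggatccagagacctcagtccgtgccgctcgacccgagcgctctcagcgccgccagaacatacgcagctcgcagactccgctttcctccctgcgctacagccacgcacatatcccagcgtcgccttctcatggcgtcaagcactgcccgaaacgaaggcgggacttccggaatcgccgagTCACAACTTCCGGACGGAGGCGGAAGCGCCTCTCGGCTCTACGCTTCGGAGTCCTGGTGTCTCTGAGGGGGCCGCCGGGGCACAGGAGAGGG
The capitals show how little the loci of the 2 strands share in these windows. They number 21 bases at Tmem129, 40 at Txndc9, 79 at Gm16832 and 18 at Gm12279. At Tbc1d22a the overlap was 106 bases, of which 92 lie in the window. The windows held 21, 23, 9, 33 and 33 CpG dinucleotides in the order printed, and 24.8%, 21.5%, 45.8%, 8.56% and 8.56% of all RefSeq windows held at least as many.

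The 11 RNA libraries were scaled to totals of 1458868 to 2399680 reads. Ehmt2 had 0.942 to 6.01 RPM in G9a cKO against 5.27 to 8.23 RPM in its controls, and the library labelled G9a cKO replicate 2 lay within the control range. Ehmt1 had 17.7 and 21.3 RPM in cDKO against 68.3 to 90.5 RPM in its controls. Genes of the oocyte list summed to 33719 to 39732.5 RPM in each library. Granulosa markers, for the follicle cells that surround the oocyte, summed to 263 to 290.1 RPM in GKAO controls, 207 to 247 in G9a cKO, 232 to 269.6 in GKAQ controls and 244 to 259 in cDKO. Blood markers summed to 0 to 4.10 RPM, with 2 of the 3 measured genes at 0 reads in every library.

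The sources used here do not state whether reads were counted by strand, and 1843 of the 2134 loci (86.4%) share bases with a locus of the opposite strand. Reads summed over all loci exceeded the library totals by 2.45% to 3.29%, so some reads were counted at more than 1 locus. At 5 antisense loci the reads equalled those of the sense locus in all 11 libraries, and at 39 they lay within 10% of those of a locus on the other strand in every library. At those loci reads from the 2 strands cannot be told apart. The other loci did not match that closely, which does not show that their reads are separate. Of the 1614 loci with a sense locus, 732 (45.4%) had more RPM in controls than the sense locus. That share is a description only, since the antisense loci were chosen by control level and the sense loci were not.

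The antisense loci took 15.3% to 15.6% of the reads in GKAO controls and 15.2% to 15.4% in G9a cKO. The share was 15.2% to 15.3% in GKAQ controls and 15.1% to 15.2% in cDKO. The 436 loci with no matching gene took 1.05% to 1.16% of the reads in every library. Control levels ran from the threshold to a mean log2 RPM of 11.50, with a median of 4.58. Just inside the threshold stood the antisense loci of Stoml2, 0610011F06Rik and Anks1, each at a control mean of 2.00. Just outside stood those of Tsc2 at 2.00, Cntn4 at 1.99 and Ppp1ca at 1.99, and the control libraries of the Tsc2 locus ran from 0.833 to 23.9 RPM.

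The 8 antisense loci with the highest control level all had a gene of their own. They were Tcf7 (annotated to AL669920.1), Mtus1 (Pdgfrl), Tacc3 (Tmem129), Uchl1 (Gm16832), Tle6 (Tle2), Eif4enif1 (Drg1), Eif5b (Txndc9) and Ubb (Gm12279). Among them Tacc3 encodes a spindle protein, Tle6 a member of the subcortical maternal complex of the oocyte, Eif4enif1 a translational repressor, Eif5b a translation initiation factor and Uchl1 a ubiquitin hydrolase. RPM values are not divided by length, so levels are compared between samples and not between genes.

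At the Tmem129 locus, which is Tacc3 (chr5:33657957-33672193, plus strand), the GKAQ controls had 2168, 2020.3 and 2118 RPM and cDKO had 1692 and 1864. The groups did not overlap, and the locus fell slightly (log2 change -0.24, SE 0.05, adjusted p = 2.33e-04). That call was lost without cDKO replicate 1 (log2 change -0.17) and with all controls pooled (log2 change -0.03, adjusted p = 0.914). The sense locus of Tmem129 itself had 2, 0 and 5 reads in GKAQ controls and 0 and 1 in cDKO, too few to compare. At the AL669920.1 locus, which covers Tcf7, GKAQ controls had 2557, 2699.9 and 2647 RPM and cDKO 3453 and 3162. That locus rose in cDKO (log2 change 0.33, SE 0.04, adjusted p = 2.77e-12), with no overlap of the groups. In G9a cKO it had 3083, 3316 and 3052 RPM against 3169, 3144 and 3283 in controls (log2 change -0.02, SE 0.04, adjusted p = 0.688), where the groups overlapped. Among the other loci of this level Pdgfrl and Drg1 fell in cDKO by less than 0.25 on the log2 scale. The Pdgfrl call was lost without GKAQ control replicate 1 (log2 change -0.14, adjusted p = 0.128) or cDKO replicate 1 (log2 change -0.13). The Drg1 call was lost without GKAQ control replicate 2 (log2 change -0.20, adjusted p = 0.0822) or cDKO replicate 1 (log2 change -0.16). It was lost with all controls pooled too (log2 change -0.13, adjusted p = 0.369).

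The first comparison asked how loss of G9A alone affects the antisense loci. In G9a cKO 79 of the 2134 loci were called by limma with Benjamini-Hochberg adjustment over all 38540 loci, 32 higher and 47 lower. That is 3.7%, beside 1.79% of all loci (1.05% higher and 0.737% lower) and 4.56% of the 11367 loci with the same control level (2.23% higher and 2.32% lower). The share of sense loci at that level was 4.46%. The median log2 change of the antisense loci was -0.01. A library decides part of the count: without G9a cKO replicate 2, the one with Ehmt2 in the control range, 43 loci were called, and without GKAO control replicate 2 or 3 there were 52 each. The count also depends on the scale: 4 loci were called on log2(RPM + 1) and 11 without a variance trend. Of 103 called values at the named loci and their sense loci, in either mutant, for the difference or for the ratio, 66 lost the call on log2(RPM + 1) and 67 without a variance trend. The control level entered the choice of loci, and with loci chosen by the mean of all 11 libraries instead 39 of 2150 rose and 42 fell.

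**Figure D2:**
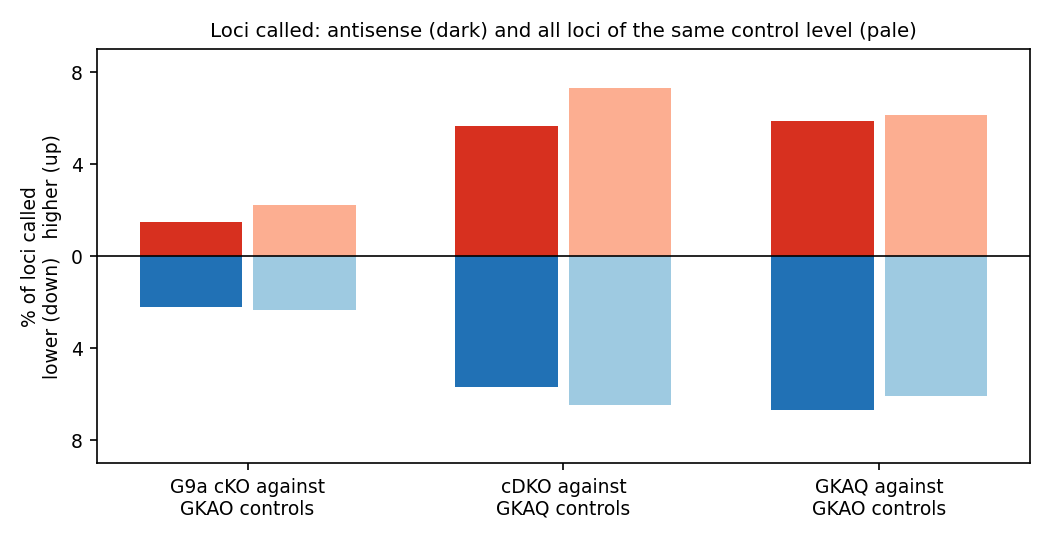
Percentage of loci called higher (up from 0) and lower (down from 0) in each comparison on the x axis, for the antisense loci (dark bars) and for all loci with a control mean of at least 2 (pale bars). In cDKO 5.67% of antisense loci were called in each direction, against 7.33% higher and 6.45% lower among all loci of that level.

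The loci of Arhgap22, AL646051.1 and Zscan4b rose in both mutants, and their calls held in each alternative tried. The Arhgap22 locus (chr14:33210356-33218606, minus strand) starts inside Arhgap22, a gene of a GTPase-activating protein. It had 9.60, 11.52 and 8.79 RPM in GKAO controls and 53.4, 57.9 and 45.7 in G9a cKO. It had 12.6, 12.9 and 11.3 RPM in GKAQ controls and 122 and 115.01 in cDKO. Every mutant library lay above every control. The change was called in G9a cKO (log2 change 2.39, SE 0.25, adjusted p = 1.35e-18) and in cDKO (log2 change 3.28, SE 0.28, adjusted p = 4.75e-29). The sense locus had almost the same values in each library, 53.0, 57.4 and 44.3 RPM in G9a cKO, with 118 and 108 in cDKO, so at this gene the strand of the RNA is not resolved. No match was found on the locus's own strand other than Gm6340, whose strand is unknown.

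The AL646051.1 locus covers that annotation and is Hs3st3a1 (chr11:64352913-64522841, plus strand), which encodes a heparan sulfate sulfotransferase. Its GKAO controls had 4.11, 3.14 and 4.10 RPM and G9a cKO 23.4, 22.4 and 18.4, a mean log2 RPM of 1.91 ± 0.22 (SD, n = 3) against 4.41 ± 0.19 (SD, n = 3). In the other series it had 5.66, 4.17 and 9.37 RPM in controls and 28.5 and 40.9 in cDKO, 2.595 ± 0.59 (SD, n = 3) against 5.09 ± 0.37 (SD, n = 2) on the log2 scale. Controls and mutants did not overlap in either series, and the rise was called in both (log2 change 2.50, SE 0.36, adjusted p = 6.91e-09 in G9a cKO and log2 change 2.50, SE 0.41, adjusted p = 1.71e-07 in cDKO). The difference between the 2 effects was not called (adjusted p = 0.998).

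The locus annotated to Zscan4b covers that annotation in the Zscan4 cluster (chr7:10817640-11089592, plus strand) and matches Zscan4c on its own strand. Zscan4 genes encode zinc finger proteins known from the embryo at the onset of its own transcription. The locus had 10.97, 12.6 and 9.38 RPM in GKAO controls and 37.99, 49.7 and 39.1 in G9a cKO, with 11.9, 17.1 and 11.3 in GKAQ controls and 67.2 and 86.0 in cDKO. No mutant library overlapped its controls (log2 change 1.95, SE 0.26, adjusted p = 5.56e-11 in G9a cKO and log2 change 2.52, SE 0.29, adjusted p = 1.16e-15 in cDKO). The Zscan4b sense locus had no read in 10 of the 11 libraries. The copies of this family are nearly identical, so the assignment of reads among them is uncertain.

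Further loci rose in both mutants. The 1700001G11Rik locus (chr14:66297031-66311424, plus strand) matches Trim35, a ubiquitin ligase gene, whose strand is not in the tables. It had 5.48, 8.38 and 7.62 RPM in GKAO controls and 25.05, 19.7 and 23.1 in G9a cKO (log2 change 1.67, SE 0.32, adjusted p = 7.43e-05). In GKAQ controls it had 8.80, 5.83 and 7.39 and in cDKO 49.0 and 39.7 (log2 change 2.61, SE 0.36, adjusted p = 1.98e-10), again without overlap. Inside Grin2a, which encodes a subunit of the NMDA receptor, lies a locus with no matching gene (chr16:9866481-9881296, plus strand). It had 10.3, 15.2 and 11.1 RPM in GKAO controls and 38.8, 29.0 and 45.2 in G9a cKO (log2 change 1.62, SE 0.25, adjusted p = 3.28e-08). GKAQ controls had 27.0, 20.003 and 22.2 and cDKO 54.1 and 69.4 (log2 change 1.42, SE 0.27, adjusted p = 2.17e-05), with both mutants above all their controls. The Grin2a sense locus, which does not overlap it, had smaller values, log2 change 0.55, SE 0.19, adjusted p = 0.145 in G9a cKO and log2 change 0.69, SE 0.22, adjusted p = 0.0275 in cDKO. That last call was lost without GKAQ control replicate 1 or 3 or cDKO replicate 1 or 2 (log2 0.57 to 0.82, adjusted p = 0.0558 to 0.308). A locus inside Etl4 (chr2:19935755-19982766, minus strand; Gm13361, strand unknown) rose as well, by log2 0.85 in G9a cKO (adjusted p = 0.00155) and 1.13 in cDKO (adjusted p = 1.19e-05), while its sense locus had -0.44 (adjusted p = 0.123) and 0.39 (adjusted p = 0.167). Grin2a and Etl4 were chosen after their values were seen.

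The Tub locus (chr7:109034312-109094591, minus strand) ends inside Tub, the tubby gene, and matches Ric3, a chaperone of acetylcholine receptors whose strand is not in the tables. It had 4.80, 9.43 and 11.1 RPM in GKAO controls, 13.8, 20.8 and 29.2 in G9a cKO, 10.7, 14.6 and 9.86 in GKAQ controls and 53.5 and 59.3 in cDKO. Neither mutant overlapped its controls. The rise was called in both (log2 change 1.35, SE 0.30, adjusted p = 0.00123 in G9a cKO and log2 change 2.29, SE 0.34, adjusted p = 2.61e-09 in cDKO). In G9a cKO the call was lost without GKAO control replicate 1 (log2 change 0.99, adjusted p = 0.0859) or G9a cKO replicate 3 (log2 change 1.09, adjusted p = 0.0906). The sense locus of Tub had 71.6, 75.8 and 71.0 RPM in GKAQ controls and 48.4 and 58.7 in cDKO.

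**Figure D3:**
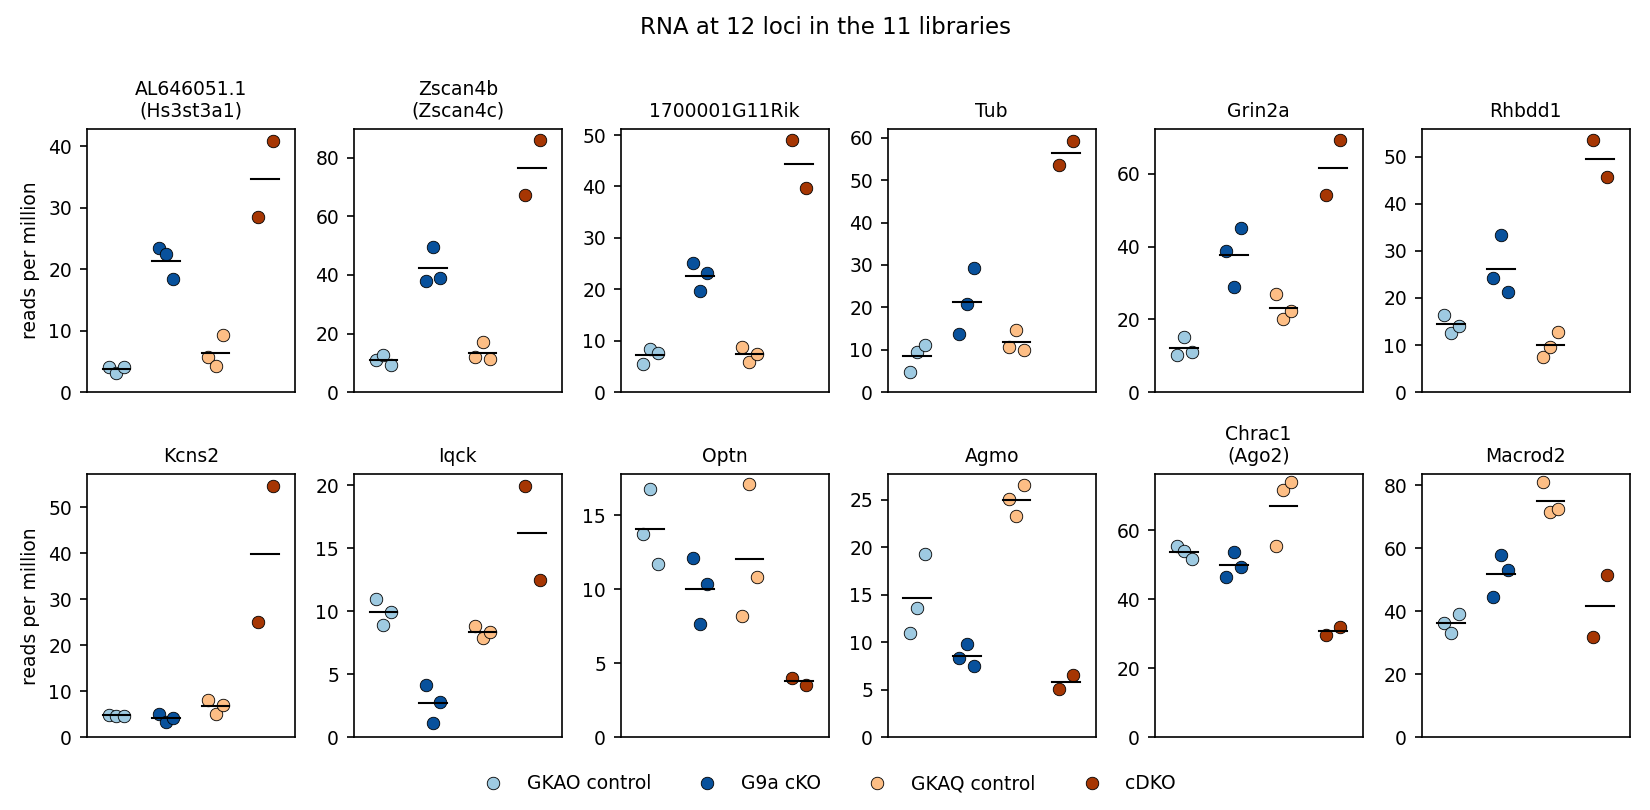
RPM (y axes, each from 0) of 12 antisense loci in each of the 11 libraries, named by the annotated gene with the gene of the locus's own strand in parentheses; the line marks the mean of a group. The first 5 loci, from AL646051.1 to Grin2a, lay higher in both mutants than in their controls, and the cDKO libraries lay below their controls at Optn, Agmo, Chrac1 and Macrod2.

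Some other loci rose in G9a cKO, and of these the Apobec3 locus was called in cDKO too. The Ccdc68 locus, which ends inside Ccdc68, had 4.80, 3.67 and 2.93 RPM in GKAO controls and 14.6, 16.4 and 9.89 in G9a cKO (log2 change 1.84, SE 0.38, adjusted p = 3.43e-04). In cDKO it was not called (log2 change 1.13, SE 0.43, adjusted p = 0.0963), nor was the gap between the 2 effects (adjusted p = 0.372). The Ccdc68 sense locus was called in both mutants. Its cDKO call was lost without GKAQ control replicate 1, 2 or 3 or cDKO replicate 1 or 2. The Apobec3 locus is Cbx7, which encodes a Polycomb chromodomain protein. It had 4.80, 2.09 and 4.69 RPM in GKAO controls and 9.18, 11.47 and 13.7 in G9a cKO, without overlap (log2 change 1.64, SE 0.42, adjusted p = 0.00818). It was called in cDKO too (log2 change 1.44, SE 0.47, adjusted p = 0.0349). The G9a cKO call was lost without GKAO control replicate 2 (log2 change 1.25, adjusted p = 0.146), G9a cKO replicate 2 (log2 change 1.63, adjusted p = 0.0551) or G9a cKO replicate 3 (log2 change 1.51, adjusted p = 0.091). The cDKO call was lost without GKAQ control replicate 1, 2 or 3 or cDKO replicate 1 or 2 (log2 1.12 to 1.77, adjusted p = 0.0573 to 0.464). A locus that ends inside Gm904 (Gm19663, strand unknown), chosen after its values were seen, rose in G9a cKO from 8.91, 10.5 and 9.96 to 27.6, 22.9 and 27.8 RPM without overlap (log2 change 1.41, SE 0.30, adjusted p = 4.63e-04). The Gm904 sense locus was called in G9a cKO too.

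The loci with the largest falls in G9a cKO had few reads. The Gm20512 locus is Nectin2, which encodes a cell adhesion molecule (chr7:19716644-19749680, minus strand). It had 10.3, 6.81 and 4.69 RPM in GKAO controls and 0.835, 2.19 and 0.471 in G9a cKO, from 15, 13 and 8 and 2, 4 and 1 reads. The groups did not overlap (log2 change -2.86, SE 0.57, adjusted p = 1.35e-04). A locus inside Iqck with no matching gene (chr7:118863356-118868540, minus strand) had 10.97, 8.90 and 9.96 RPM in GKAO controls and 4.17, 1.09 and 2.83 in G9a cKO, also without overlap (log2 change -2.08, SE 0.43, adjusted p = 2.96e-04). That call was lost without G9a cKO replicate 2 (log2 change -1.53, adjusted p = 0.0557). Inside Med13l, a Mediator subunit gene, a locus with no matching gene had 1, 3 and 1 reads in G9a cKO. That is at or under the limit of 3 reads in each library. Its controls had 2.74, 4.19 and 2.93 RPM, and pooled reads gave a ratio of controls to G9a cKO of 4.25 (95% exact interval 1.51 to 14.7, for counting error only). Its call (adjusted p = 0.0442) was lost without GKAO control replicate 1, 2 or 3, G9a cKO replicate 1 or 3 or GKAQ control replicate 1, 2 or 3 (log2 -1.88 to -2.35, adjusted p = 0.0574 to 0.249).

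The other 3 loci of this rank were at Rell1, 4632433K11Rik and Tomm40. Inside Rell1, a gene of the RELT family, a locus with no matching gene had 8.23, 3.67 and 4.69 RPM in GKAO controls and 0.417, 1.64 and 2.83 in G9a cKO (log2 change -2.06, SE 0.54, adjusted p = 0.012). Its call was lost without GKAO control replicate 1 (log2 change -1.73, adjusted p = 0.148) or G9a cKO replicate 1 (log2 change -1.28, adjusted p = 0.42). The Rell1 sense locus, which overlaps it, fell in both mutants, in G9a cKO (log2 change -0.73, SE 0.18, adjusted p = 0.00658) and in cDKO, where the antisense locus was not called (log2 change -0.79, SE 0.20, adjusted p = 0.00389). These calls were lost without GKAO control replicate 1 or G9a cKO replicate 2 (log2 -0.62 in both, adjusted p = 0.104 to 0.12) and without GKAQ control replicate 3 or cDKO replicate 2 (log2 -0.71 to -0.72, adjusted p = 0.0521 to 0.0641). The 4632433K11Rik locus is Zfp784, a zinc finger gene, with 5, 8 and 10 reads in GKAO controls and 0, 7 and 1 in G9a cKO (log2 change -2.32, SE 0.64, adjusted p = 0.0225). That call was lost without GKAO control replicate 2 or 3 or G9a cKO replicate 1 or 3 (log2 -1.71 to -2.35, adjusted p = 0.0688 to 0.299). The locus that starts inside Tomm40, a gene of mitochondrial import, is Gm38955 and had 8, 11 and 7 and 1, 7 and 3 reads (log2 change -1.95, SE 0.54, adjusted p = 0.0251). It was lost without GKAO control replicate 1 or 2 or G9a cKO replicate 1 or 3 (log2 -1.12 to -2.002, adjusted p = 0.0503 to 0.525).

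Among the loci with no matching gene, 3 rose and 11 fell in G9a cKO, out of 436. Of the 234 that lay wholly inside a gene 1 rose, that in Grin2a, and 9 fell. Among the 1432 loci with their own gene 22 rose and 29 fell, and among the 266 with a match of unknown strand 7 rose and 7 fell. These shares, 3.21%, 3.56% and 5.26%, stand beside 4.56% of all loci of that level, and no difference between them was tested.

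The second comparison asked how loss of both enzymes affects the antisense loci. The count in cDKO was 242 loci, of which 121 rose and 121 fell (centred on the median of detected loci, which shifts each log2 change by -0.09, 75 and 179). The 242 are 11.3%, beside 6.34% of all loci (4.32% higher and 2.02% lower), 13.8% of loci with the same control level (7.33% and 6.45%) and 14.0% of sense loci. The median log2 change was 0.03. Without cDKO replicate 1, which leaves 1 cDKO library that is assumed to vary like the other groups, 119 loci were called. The median change among called loci was 0.93 for those that rose and -0.72 for those that fell. On log2(RPM + 1) 93 loci were called, without a variance trend 67, and with the number in the sample titles as a block 48. Only 1 title number occurs in both groups of the GKAQ series, so that last fit rests on 1 library of each group. With loci chosen by the mean of all 11 libraries 142 rose and 117 fell. Of the loci that cover their annotated gene, 24 of 98 (24.5%) were called, 17 higher and 7 lower.

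Among the loci that rose in cDKO, 1 lies inside Rhbdd1, a rhomboid protease gene, and matched no gene (chr1:82390041-82416074, minus strand). It had 7.54, 9.58 and 12.8 RPM in GKAQ controls and 53.5 and 45.6 in cDKO (log2 change 2.34, SE 0.31, adjusted p = 3.43e-11). The Rhbdd1 sense locus rose less, from 37.1, 39.2 and 38.9 to 80.9 and 69.4 RPM (log2 change 0.96, SE 0.22, adjusted p = 5.87e-04), and the antisense-to-sense ratio rose too (log2 change 1.38, SE 0.23, adjusted p = 0.00836). In G9a cKO the antisense locus had 24.2, 33.3 and 21.2 RPM against 16.5, 12.6 and 14.1 in controls, above all of them but not called (log2 change 0.85, SE 0.28, adjusted p = 0.0979).

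The 4930469K13Rik locus (chr11:34047201-34092295, plus strand) matches Lcp2, an adaptor gene of immune cell signalling. It had 5.66, 12.9 and 13.8 RPM in GKAQ controls and 36.4 and 53.4 in cDKO (log2 change 2.14, SE 0.36, adjusted p = 4.37e-07), without overlap. In G9a cKO it had 12.5, 11.47 and 10.8 against 11.7, 7.86 and 12.9 RPM, within the spread of the controls (log2 change 0.13, SE 0.32, adjusted p = 0.795). The locus over Kcns2, a modulatory potassium channel subunit gene (chr15:34794831-34860498, minus strand; Gm32970, strand unknown), had 8.17, 5.00 and 6.90 RPM in GKAQ controls and 25.1 and 54.5 in cDKO (log2 change 2.49, SE 0.47, adjusted p = 1.25e-05). That call was lost without cDKO replicate 2 (log2 change 1.93, adjusted p = 0.0508). Kcns2 had no read at its sense locus in any library.

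Among the loci that fell in cDKO, that of Agmo (chr12:37554273-37630861, minus strand), the gene of alkylglycerol monooxygenase, matched no gene of its own. It had 25.1, 23.3 and 26.6 RPM in GKAQ controls and 5.12 and 6.52 in cDKO. No values overlapped, and the fall was called (log2 change -2.11, SE 0.38, adjusted p = 2.97e-06). In G9a cKO it had 8.35, 9.83 and 7.53 against 10.97, 13.6 and 19.3 RPM, below all controls but not called (log2 change -0.74, SE 0.34, adjusted p = 0.23). The Agmo sense locus had only 0, 1 and 1 reads in GKAQ controls and 3 and 4 in cDKO. The Chrac1 locus is Ago2 (chr15:73095844-73184934, minus strand), which encodes the Argonaute protein that cleaves targets of small RNAs. It had 55.3, 71.7 and 73.9 RPM in GKAQ controls and 29.6 and 32.0 in cDKO, without overlap (log2 change -1.11, SE 0.21, adjusted p = 1.33e-05). In G9a cKO it had 46.3, 53.5 and 49.4 against 55.5, 53.9 and 51.6 RPM (log2 change -0.11, SE 0.19, adjusted p = 0.698).

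The other loci with the largest falls in cDKO had few reads. The Tbc1d22a locus, which starts just past the end of the promoter window printed above and matched no gene (chr15:86213795-86214522, minus strand), had 6, 9 and 9 reads in GKAQ controls and 1 and 1 in cDKO. The pooled ratio of controls to cDKO was 6.86 (95% exact interval 1.70 to 59.9), and the fall was called (adjusted p = 0.00358). It was called in each fit that left out 1 library but not on log2(RPM + 1) (adjusted p = 0.203), without a variance trend (0.103) or with voom weights (0.252). Inside Ppap2b, a lipid phosphatase gene, a locus with no match had 7, 18 and 6 reads in GKAQ controls and 3 and 1 in cDKO. That is a pooled ratio of 4.43 (95% exact interval 1.57 to 17.3), and the fall was called (adjusted p = 0.015). That call was lost without GKAQ control replicate 2 (log2 change -1.84, adjusted p = 0.162) or cDKO replicate 2 (log2 change -1.43, adjusted p = 0.407). Loci with no matching gene at Slc2a9 (a urate transporter gene), Marveld3 and Prdm16 (a chromatin regulator gene) had log2 changes of -2.27, -2.37 and -2.31. The call was lost for Slc2a9 without cDKO replicate 2 (log2 change -1.80, adjusted p = 0.0762), for Marveld3 without GKAQ control replicate 2 (log2 change -2.02, adjusted p = 0.0895) or cDKO replicate 1 (log2 change -1.18, adjusted p = 0.626) and for Prdm16 without GKAQ control replicate 3 (log2 change -1.96, adjusted p = 0.0762) or cDKO replicate 1 (log2 change -1.28, adjusted p = 0.463). The Marveld3 and Prdm16 sense loci, which overlap them, fell as well (log2 change -2.06, SE 0.68, adjusted p = 0.0421 and log2 change -0.66, SE 0.20, adjusted p = 0.0261). These calls were lost for Marveld3 without GKAQ control replicate 1 or 2 or cDKO replicate 1 (log2 -1.24 to -1.85, adjusted p = 0.137 to 0.684) and for Prdm16 without GKAQ control replicate 2 or 3 or cDKO replicate 1 or 2 (log2 -0.59 to -0.68, adjusted p = 0.0657 to 0.152). The Slc2a9 sense locus was not called (log2 change 0.38, SE 0.45, adjusted p = 0.589).

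Of the loci called in the mutants 29 were called in both, which is 36.7% of the G9a cKO calls and 11.98% of the cDKO calls. The same overlap was not counted over all loci, so these shares say nothing particular to antisense loci. Both values were higher at 16 of the 29 loci and lower at 12. The remaining locus, at Gm11775 and chosen after its values were seen, fell in 1 mutant and rose in the other (chr11:121027089-121044175, minus strand; Cd7, strand unknown). It had 31.5, 53.9 and 53.3 RPM in GKAO controls and 28.4, 16.4 and 15.5 in G9a cKO (log2 change -1.22, SE 0.22, adjusted p = 1.43e-05). GKAQ controls had 23.3, 29.2 and 41.9 and cDKO 58.1 and 65.8 (log2 change 1.02, SE 0.25, adjusted p = 0.00158). The 2 mutants lay on opposite sides of their own controls with no overlap in either series. The cDKO call was lost without cDKO replicate 2 (log2 change 0.93, adjusted p = 0.058). Both calls were lost on log2(RPM + 1), without a variance trend and with voom weights, and the cDKO call also with the title number as a block. The sense locus of Gm11775 had nearly the same reads in each library, so the strand of the RNA is not resolved there.

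The difference between the effects was tested in the same fit. At 42 antisense loci (1.97%) it was called, 25 with the higher effect in cDKO and 17 with the lower, beside 1.08% of all loci (0.685% higher and 0.397% lower) and 2.91% of loci of the same level (1.59% and 1.32%). Among the 42, the change in cDKO itself was called at 33 and that in G9a cKO at 7, while 4 had no call in either mutant. Without GKAQ control replicate 1 the count was 158, and on log2(RPM + 1) it was 2. Centred on the median of detected loci the split was 17 and 30.

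A locus inside Macrod2, an ADP-ribose hydrolase gene, matched no gene and was chosen after its values were seen (chr2:142376311-142382087, minus strand). It had 36.3, 33.0 and 39.3 RPM in GKAO controls and 44.7, 57.9 and 53.2 in G9a cKO, all above the controls (log2 change 0.52, SE 0.19, adjusted p = 0.171). GKAQ controls had 81.1, 71.7 and 72.5 and cDKO 31.9 and 51.6, both below the controls (log2 change -0.89, SE 0.21, adjusted p = 0.00129). The difference was called (log2 difference -1.40, SE 0.28, adjusted p = 3.83e-04). Without cDKO replicate 1 neither was: the cDKO change was then log2 -0.54, adjusted p = 0.315, and the difference log2 -1.06, adjusted p = 0.0646.

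The 2 control groups were compared as well, since they come from different title series. Between GKAQ and GKAO controls 269 of the 2134 loci (12.6%) were called, 126 higher and 143 lower, beside 3.87% of all loci (1.96% higher and 1.91% lower) and 12.2% of loci of the same level (6.12% and 6.1%). Without GKAQ control replicate 1 the count was 173. More loci were called between the control groups than in G9a cKO (79) or in cDKO (242), and each mutant was read only against its own series. At the Gm16832 locus, which is Uchl1, GKAO controls had 2298, 2533 and 2356 RPM and GKAQ controls 1342, 1396 and 1379. There cDKO had 1817 and 1495 RPM, above its own controls (log2 change 0.26, SE 0.05, adjusted p = 1.07e-05) and below all those of the other series. With all controls pooled its change turned to log2 -0.14 (adjusted p = 0.874), and the call was lost without cDKO replicate 1 (log2 change 0.12, adjusted p = 0.292).

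Antisense and sense loci of the same gene were then set side by side. A sense locus existed for 1614 antisense loci. Where a gene had several, the one with the highest mean over the 11 libraries, mutants included, was taken. Of these pairs 1412 overlap, by a median of 1775 bases, and overlap with other sense loci of the gene was not counted. Both loci had a control mean of at least 2 in 1321 pairs. Their log2 changes in cDKO correlated across pairs with Pearson's r = 0.490 and had the same sign in 66.6% of pairs, and in G9a cKO r = 0.462 and 67.1%. Pairs are not independent replicates, and the points of a pair share the library and, where loci overlap, possibly reads.

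The likeness followed the overlap of the loci. In the 29 pairs with reads within 10% of each other the changes were nearly equal (r = 0.999 in cDKO). With at least 1000 shared bases, r was 0.668 in cDKO and 0.632 in G9a cKO over 712 pairs, with the same sign in 74.2% and 75.7%. With fewer than 1000 shared bases, r was 0.205 and 0.178 over 446 pairs, with the same sign in 57.4% and 54.9%. Without overlap, r was 0.0822 and 0.135 over 134 pairs, with the same sign in 50% and 54.5%. The part of shared reads in this likeness was not tested.

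**Figure D4:**
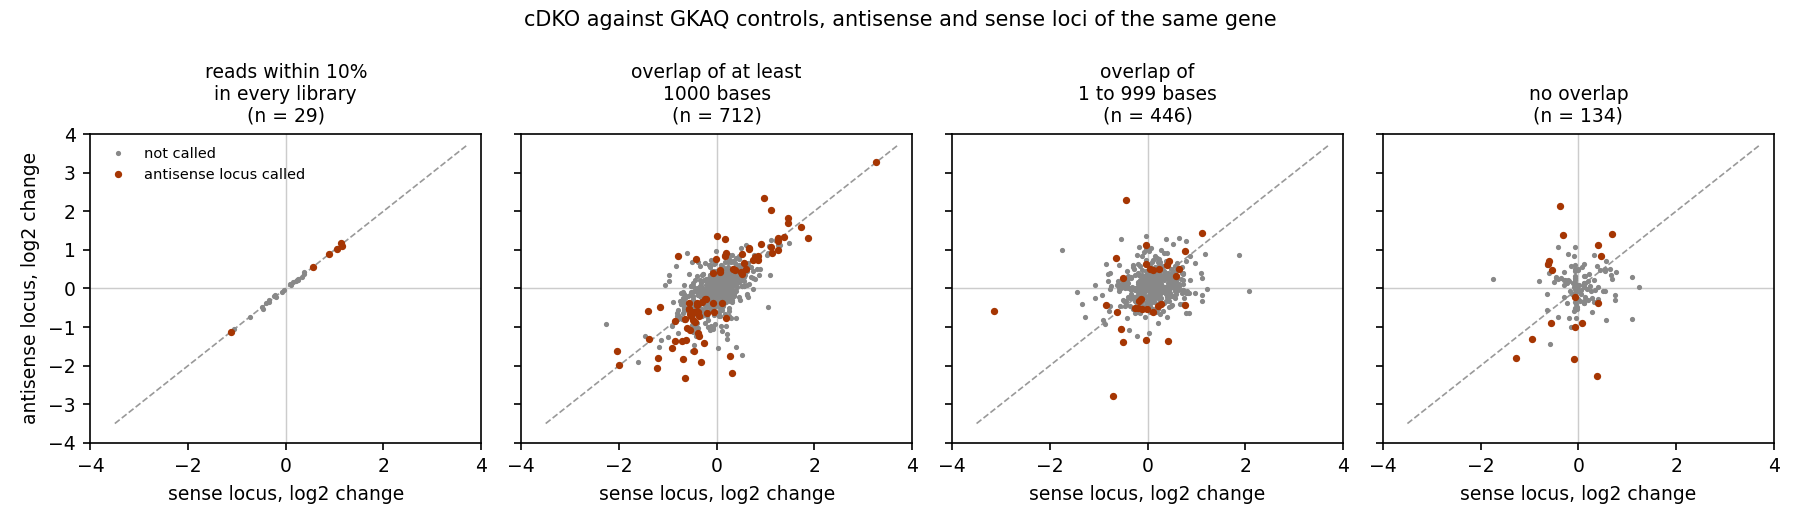
Log2 change in cDKO against GKAQ controls at the antisense locus (y axis) and the sense locus of the same gene (x axis), for pairs grouped by shared reads and overlap; each point is a pair, coloured where the antisense locus was called, and the dashed line marks equal changes. Points follow the dashed line with at least 1000 shared bases (n = 712) and scatter around 0 without overlap (n = 134).

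In cDKO both loci were called in 60 of the 1321 pairs, in the same direction in 55 and in opposite directions in 5. In G9a cKO both were called in 13 pairs, all in the same direction. The 5 opposite pairs are at AU040320, Atxn2, Tm7sf3, Mrpl48 and Atp6v1a, and were picked out for their opposite calls. All 5 antisense loci have a gene of their own: Zmym4 at AU040320, Sh2b3 at Atxn2, Med21 at Tm7sf3, Rab6a at Mrpl48 and Naa50 at Atp6v1a. The pairs at AU040320, Tm7sf3 and Mrpl48 do not overlap in the assembly.

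At AU040320 the antisense locus, Zmym4, had 94.9, 96.3 and 83.8 RPM in GKAQ controls and 137 and 148 in cDKO (log2 change 0.64, SE 0.16, adjusted p = 0.00242). The AU040320 sense locus had 186, 196 and 169.6 and 122 and 117 RPM (log2 change -0.62, SE 0.12, adjusted p = 3.28e-05). Neither locus had overlapping groups, and the antisense call was lost without cDKO replicate 2 (log2 change 0.59, adjusted p = 0.0569). At Mrpl48, a gene of the mitochondrial ribosome, the antisense locus, Rab6a of Golgi transport, had 179.8, 169 and 177 RPM in GKAQ controls and 272 and 218 in cDKO (log2 change 0.47, SE 0.12, adjusted p = 0.00178). The Mrpl48 sense locus had 137, 153 and 165 and 95.1 and 113 RPM (log2 change -0.55, SE 0.15, adjusted p = 0.00801). The antisense call was lost without cDKO replicate 1 (log2 change 0.32, adjusted p = 0.25) and the sense call without GKAQ control replicate 3 (log2 change -0.48, adjusted p = 0.0861) or cDKO replicate 1 (log2 change -0.42, adjusted p = 0.215).

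The opposite calls at Tm7sf3, Atxn2 and Atp6v1a were smaller or less stable. The Tm7sf3 antisense locus, Med21 of the Mediator complex, had log2 0.72 (adjusted p = 0.0114) and its sense locus -0.59 (adjusted p = 0.00573). These calls were lost without GKAQ control replicate 1 or cDKO replicate 1 or 2 (log2 0.62 to 0.74, adjusted p = 0.079 to 0.102) and without GKAQ control replicate 2 or cDKO replicate 1 (log2 -0.50 to -0.51, adjusted p = 0.0823 to 0.13). For Atxn2 the values were 0.76 (adjusted p = 0.032) and -0.42 (adjusted p = 0.0074), lost without GKAQ control replicate 1, 2 or 3 or cDKO replicate 1 or 2 (log2 0.66 to 0.86, adjusted p = 0.072 to 0.282) and without GKAQ control replicate 3 or cDKO replicate 1 (log2 -0.29 to -0.37, adjusted p = 0.0948 to 0.32). For Atp6v1a they were -0.43 (adjusted p = 0.00484) and 0.76 (adjusted p = 0.00747), lost without cDKO replicate 1 (log2 change -0.40, adjusted p = 0.0662) and without GKAQ control replicate 3 or cDKO replicate 2 (log2 0.49 to 0.66, adjusted p = 0.139 to 0.288).

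The log ratio of antisense to sense within each library was tested over 2687 pairs with at least 10 reads at both loci, 1504 of them with one of the 2134 loci. In G9a cKO limma called 0 of the 1504, with 194 at an unadjusted p under 0.05, beside 0.0% of all pairs. In cDKO 51 were called, 25 with the ratio higher and 26 lower, which is 3.39% beside 2.64% of all pairs (1.45% higher and 1.19% lower). Without cDKO replicate 1 there were 18, without cDKO replicate 2 there were 29, without GKAQ control replicate 2 there were 26, and without GKAQ control replicate 3 there were 20. With the title number as a block 0 were called, and each of the 10 cDKO ratios named by rank lost its call. Between the control groups 75 pairs (4.99%) were called, beside 3.09% of all pairs (1.6% higher and 1.49% lower), and the difference between the effects was called for 1 pair (0.0665%), beside 0.0744% of all pairs.

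The pairs with the largest change of ratio show different patterns. At Agmo, described above, the ratio fell (log2 change -4.16, SE 0.50, adjusted p = 0.00107), though its size rests on a sense locus with 0, 1 and 1 reads in controls and is no bound. At Ttc16 the antisense locus, which is Tor2a, a gene of the torsin family (chr2:32757234-32762249, plus strand), had 6.28, 5.42 and 4.44 RPM in GKAQ controls and 11.96 and 9.49 in cDKO. The Ttc16 sense locus had 3.77, 5.83 and 4.93 and 1.71 and 1.19 RPM, with cDKO below the controls here and above them at the antisense locus, and the ratio rose (log2 change 2.74, SE 0.43, adjusted p = 0.00652), though neither locus was called by itself (adjusted p = 0.271 and 0.0687). At B4galt3, a galactosyltransferase gene, the sense locus rose (log2 change 2.07, SE 0.48, adjusted p = 7.27e-04) from 3.77, 3.75 and 7.89 to 18.2 and 22.5 RPM. Its antisense locus, which is Ppox of heme synthesis, had 3.14, 5.42 and 7.89 and 3.42 and 7.11 RPM, and the ratio fell (log2 change -2.13, SE 0.43, adjusted p = 0.0208). The B4galt3 ratio was no longer called without GKAQ control replicate 2 (log2 change -1.91, adjusted p = 0.0818), GKAQ control replicate 3 (log2 change -2.17, adjusted p = 0.0612) or cDKO replicate 1 (log2 change -1.75, adjusted p = 0.208).

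At Tub the ratio rose (log2 change 2.74, SE 0.46, adjusted p = 0.00818) in cDKO. That call was lost without cDKO replicate 1 (log2 change 2.67, adjusted p = 0.0716) or cDKO replicate 2 (log2 change 2.80, adjusted p = 0.0514). At Exd1, a gene of piRNA production, the antisense locus, which is Chp1, had 27.0, 23.8 and 30.6 RPM in GKAQ controls and 46.7 and 45.6 in cDKO. The Exd1 sense locus had 28.9, 32.1 and 31.5 and 20.5 and 19.0, so cDKO lay above the controls at the antisense locus and below them at the sense locus. Its ratio rose (log2 change 1.42, SE 0.25, adjusted p = 0.01), a call lost without cDKO replicate 1 (log2 change 1.46, adjusted p = 0.0716) or cDKO replicate 2 (log2 change 1.38, adjusted p = 0.0739). The Chrac1 ratio, Ago2 over Chrac1, fell (log2 change -2.92, SE 0.68, adjusted p = 0.0411) and was lost without GKAO control replicate 2 or 3, GKAQ control replicate 1, 2 or 3 or cDKO replicate 1 or 2 (log2 -2.40 to -3.45, adjusted p = 0.0522 to 0.302). The Mrps14 ratio, with Cacybp on the antisense strand, rose (log2 change 1.82, SE 0.44, adjusted p = 0.048) and was lost without GKAO control replicate 3, G9a cKO replicate 1 or 2, GKAQ control replicate 1, 2 or 3 or cDKO replicate 1 or 2 (log2 1.68 to 1.96, adjusted p = 0.0542 to 0.266).

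Imprinted genes carry several of the best known antisense RNAs. Of 53 listed genes 9 gave an antisense locus of the set, and 1 of the 9 was called in G9a cKO and 0 in cDKO. The median log2 changes of the 9 were -0.12 and 0.14, and those of all 2134 loci -0.01 and 0.03. The locus annotated to Igf2r is Airn (chr17:12741311-12819917, plus strand), the antisense RNA that silences Igf2r on the paternal allele. It had 20.6, 14.7 and 8.79 RPM in GKAO controls, 15.9, 23.5 and 14.6 in G9a cKO, 20.1, 24.2 and 20.7 in GKAQ controls and 11.96 and 19.6 in cDKO. The groups overlapped in the first series and not in the second, and neither change was called (log2 0.35, adjusted p = 0.406, and -0.50, adjusted p = 0.565). The Igf2r sense locus fell in cDKO, from 189, 186 and 178 to 127 and 107 RPM (log2 change -0.66, SE 0.14, adjusted p = 2.17e-04). Its GKAO controls had 138, 132 and 110 RPM, and the control groups differed (log2 0.54, GKAQ against GKAO, adjusted p = 0.00108). The cDKO call was lost with all controls pooled (log2 change -0.39, adjusted p = 0.119). It was also lost on log2(RPM + 1) (adjusted p = 0.126) and without a variance trend (adjusted p = 0.181).

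The locus annotated to Nespas lies on the strand of Gnas (chr2:174284320-174346744, plus strand), the gene of the stimulatory G protein subunit, and was the 1 called. It had 182, 177 and 130.1 RPM in GKAO controls and 223, 205 and 195 in G9a cKO, without overlap (log2 change 0.36, SE 0.11, adjusted p = 0.0392). The call was lost without GKAO control replicate 3, G9a cKO replicate 1 or 2 or GKAQ control replicate 2 or 3 (log2 0.21 to 0.37, adjusted p = 0.0573 to 0.361). The locus antisense to Gnas, on the opposite strand, lies within the Nespas locus and had similar values, 176, 169.7 and 126 RPM in GKAO controls. In G9a cKO it had 214, 197 and 188 RPM. The 2 loci are thus not independent, and the strand of the RNA is not resolved here. The loci antisense to Mest (Copg2), Inpp5f (Mcmbp), H13, Commd1, Trappc9 and Airn had adjusted p-values of 0.247 to 0.797 over both mutants. At 36 imprinted genes with a sense locus of any level 3 rose and 1 fell in G9a cKO, and 5 rose and 4 fell in cDKO, where 1.79% and 6.34% of all loci, and 4.46% and 14.0% of sense loci with a control mean of at least 2, were called.

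Genes that make, bind or destroy double-stranded and small RNA came next. Of 53 listed, 5 had an antisense locus of the set (Ilf2, Exosc3, Eif2c3, Skiv2l2 and Dis3), of which limma called 0 in each mutant, at adjusted p-values from 0.0867 (Eif2c3 in G9a cKO) to 0.965 (Ilf2 in cDKO). At 39 sense loci of the list 0 rose and 2 fell in G9a cKO (Zcchc8 and Mov10), and 3 rose and 7 fell in cDKO. In G9a cKO 1.79% of all loci and 4.46% of sense loci with a control mean of at least 2 were called. In cDKO these shares were 6.34% and 14.0%. Of the 4 loci that are themselves a listed gene on their own strand, that of Ago2 (Chrac1, above) fell in cDKO and those of Henmt1 (Gm9857), Tarbp2 (Map3k12) and Dgcr8 (Trmt2a) were not called.

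The loci at Optn and Dynlt1a belong to genes known to give endogenous small interfering RNAs in oocytes. A locus inside Optn, an autophagy receptor gene, with no matching gene (chr2:5037280-5041133, plus strand) had 8.17, 17.1 and 10.8 RPM in GKAQ controls and 3.99 and 3.56 in cDKO. Both cDKO libraries lay below all controls, and the fall was called (log2 change -1.61, SE 0.42, adjusted p = 0.00457). It was lost without GKAQ control replicate 2 (log2 change -1.32, adjusted p = 0.0987) or cDKO replicate 2 (log2 change -1.53, adjusted p = 0.0504). The Optn sense locus had 74.2, 97.1 and 95.1 and 61.5 and 65.8 RPM, below all controls in cDKO too, and was not called (log2 change -0.47, SE 0.17, adjusted p = 0.0798). The locus that starts inside Dynlt1a, a dynein light chain gene, fell in G9a cKO, from 52.1, 30.9 and 40.4 to 32.6, 13.7 and 22.6 RPM with overlapping groups (log2 change -0.90, SE 0.24, adjusted p = 0.016). Its call was lost without GKAO control replicate 1 (log2 change -0.71, adjusted p = 0.223), GKAO control replicate 3 (log2 change -0.89, adjusted p = 0.0625) or G9a cKO replicate 2 (log2 change -0.57, adjusted p = 0.128). Of 9 sense loci of genes on that list limma called 0 in each mutant, beside the shares of sense loci given above.

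The remaining lists gave few calls. Antisense loci of 6 chromatin genes, 7 oocyte genes and 4 loci of developmental transcription factors (Pax6, Pax2 and 2 at Pou5f1) included 0 called in each mutant. Of all 2134 antisense loci 3.7% were called in G9a cKO and 11.3% in cDKO. Of the granulosa list only Hsd3b1, a steroid dehydrogenase gene, had such a locus, which covers the gene (chr3:98824938-98915029, plus strand). It rose in G9a cKO, from 5.48, 6.28 and 6.45 to 10.4, 15.8 and 19.3 RPM (log2 change 1.28, SE 0.36, adjusted p = 0.0243), while the summed granulosa markers were lower there, 207 to 247 RPM against 263 to 290.1 in controls. The part of those cells in the change was not tested. The call was lost without GKAO control replicate 1 or 2 or G9a cKO replicate 2 or 3 (log2 1.09 to 1.31, adjusted p = 0.0512 to 0.237).

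Several loci are themselves listed genes on their own strand, and these were picked out after their values were seen. The Asb17 locus, which is the meiotic recombination gene Msh4, fell in G9a cKO from 72.7, 78.0 and 81.5 to 53.4, 33.9 and 52.7 RPM (log2 change -0.76, SE 0.18, adjusted p = 0.00393), a call lost without G9a cKO replicate 2 (log2 change -0.54, adjusted p = 0.128). The Chpt1 locus, which is Sycp3 of the meiotic chromosome axis, rose in cDKO from 23.3, 28.8 and 34.5 to 42.1 and 68.8 RPM (log2 change 0.92, SE 0.26, adjusted p = 0.0118), lost without GKAQ control replicate 1 (log2 change 0.77, adjusted p = 0.0981) or cDKO replicate 2 (log2 change 0.57, adjusted p = 0.54). The Mfsd12 locus, which is Fzr1, an activator of the anaphase-promoting complex, rose in cDKO (log2 change 0.52, SE 0.13, adjusted p = 0.00283), lost without cDKO replicate 1 (log2 change 0.43, adjusted p = 0.118). The Emx2os locus, which is the homeobox gene Emx2, rose in G9a cKO (log2 change 0.83, SE 0.24, adjusted p = 0.04), lost without GKAO control replicate 2 or 3, G9a cKO replicate 1, 2 or 3 or GKAQ control replicate 2 or 3 (log2 0.50 to 0.95, adjusted p = 0.0514 to 0.447). The loci of Dnmt3l (annotated to Aire), Dnmt3b (7530422B04Rik), Setdb1 (Lass2), Kdm1b (Tpmt), Kdm1a (Luzp1) and Suv39h2 (Dclre1c), genes of DNA and histone methylation, were not called in either mutant.

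H3K9me2 was read over the same loci in 10-kb windows, a readout that did not enter the choice of loci. There were 2 libraries per genotype, with 1109191 to 1881848 reads in the mutants and 7048784 and 19128881 in controls, so depth and genotype cannot be told apart. Since values are scaled to each library, they cannot show whether the whole mark gained or lost. The 10386 windows that overlap an antisense locus had 0.913 and 0.897 of the mean level of all windows in controls. The G9a cKO libraries gave 1.03 and 1.06 and the cDKO libraries 1.11 and 1.08, so every mutant library lay above both controls. The 58879 windows over sense loci gave 0.929 and 0.918, then 1.00 and 1.03, then 1.09 and 1.08, the same order. A further set held the loci without a RefSeq gene known to lie on their own strand, those with a match of unknown strand included. Over that set the ratio was 0.950 and 0.940 in controls. It went to 1.12 and 1.13 with G9A lost and 1.14 and 1.11 with both enzymes lost.

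Per window, limma called 194 of the 10386 in G9a cKO, 190 higher and 4 lower, beside 1.85% of all windows (1.75% higher and 0.102% lower). Single libraries decide this count. It was 0 without G9a cKO replicate 2, without cDKO replicate 1 or without cDKO replicate 2, 69 and 103 without control replicate 1 or 2, and 436 without G9a cKO replicate 1. In cDKO limma called 0, beside 0.0% of all windows, with 1032 at an unadjusted p under 0.05, and 12 were called without control replicate 1.

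**Figure D5:**
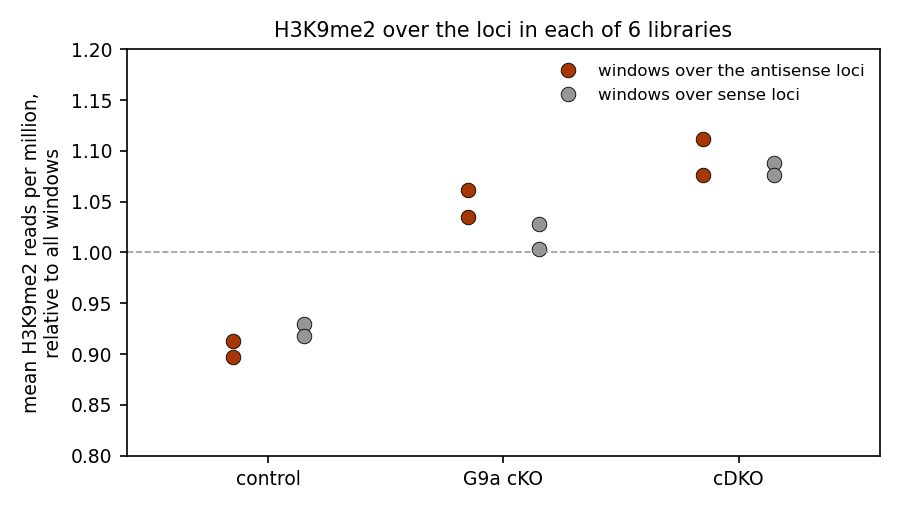
Mean H3K9me2 RPM of 10-kb windows over the antisense loci and over sense loci, divided by the mean of all windows (y axis, from 0.80), in each of the 6 libraries by genotype (x axis); each point is a library and the dashed line marks the genome mean. Controls lie below 1 at both kinds of loci (0.913 and 0.897 over the antisense loci) and both cDKO libraries above it (1.11 and 1.08).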

How the data were processed

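RNA-seq of 11 oocyte libraries and H3K9me2 chromatin immunoprecipitation sequencing (ChIP-seq) of 6 were used; the other samples were not analysed here. Per the submitters' processing notes, reads were handled with Trim Galore, Bowtie2, HISAT2 2.1.0 and Bismark on GRCm38, with no role given for each. The deposited values are log2 reads, scaled by the authors to 1000000 per library, with 0 reads entered as 0.9 of a read, as the values themselves show. Whole reads (tolerance 0.01) were recovered from them and serve for depth and limits. RNA libraries hold 1458868 to 2399680 reads, so 3 reads, taken as the limit of detection, are 1.25 to 2.06 RPM; this covers counting error only.

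Levels were tested with limma 3.58.1 in R 4.3.3 (empirical Bayes with a robust variance trend) over 38540 loci and 11 libraries, at a Benjamini-Hochberg adjusted p under 0.05. No covariate was used. The antisense-to-sense log ratio was fitted over pairs with at least 10 reads at both loci, with the variance trend on the lower level of the pair, a choice made after a test on simulated data. H3K9me2 was fitted over 10-kb windows where any library had reads; 4 other columns of per-sample values in that table were not used. Promoter sequences and gene positions are from RefSeq (GRCm38.p6); the strand of 19795 of its 49997 genes was not known from the tables.

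The members and lists were chosen with earlier results of these data known. Named are listed genes that were called and all imprinted ones, the 8 highest loci, the 6 largest called changes in each direction per mutant, the 5 largest called ratios in each direction and differences, and the 3 loci on each side of the threshold; others are marked as chosen after their values were seen, and a few results are not reported here. Alternatives were another scaling, log2(RPM + 1), no variance trend, voom weights, other filters and member levels, pooled controls, the title number as a block and leaving out each library.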

Additional observations from a re-analysis of the deposited data

Results flagged for a closer look

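The effects of the 2 mutants differed at 42 antisense loci by the limma test of the difference itself, each mutant against its own controls (Benjamini-Hochberg adjusted p under 0.05). Values here are cDKO minus G9a cKO on the log2 scale. The difference was 0.35 at AL669920.1 (Tcf7; adjusted p = 8.50e-07) and 2.23 at Gm11775 (adjusted p = 5.98e-08), and both were called in each fit that left out 1 library. Neither was called on log2(RPM + 1) (adjusted p = 0.132 and 0.188) or without a variance trend (0.232 and 0.129).

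At Gm9962, whose locus is Gabra5, a GABA receptor subunit gene, GKAO controls had 3.43, 6.81 and 11.7 RPM and G9a cKO 3.76, 1.09 and 1.41, while GKAQ controls had 3.77, 4.17 and 5.91 and cDKO 10.2 and 14.2. The difference there was 3.27 (adjusted p = 0.00396), lost without GKAO control replicate 3 (log2 2.84, adjusted p = 0.0546) or cDKO replicate 2 (log2 3.03, adjusted p = 0.0508).

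At Iqck the difference was 2.99 (adjusted p = 0.00119), lost without cDKO replicate 1 (log2 2.65, adjusted p = 0.0533). At Kcns2 it was 2.70 (adjusted p = 0.00491), lost without cDKO replicate 2 (log2 2.14, adjusted p = 0.168). At 4930469K13Rik (Lcp2) it was 2.004 (adjusted p = 0.00704), lost without cDKO replicate 2 (log2 1.73, adjusted p = 0.106). At Macrod2 it was -1.40 (adjusted p = 3.83e-04), lost without cDKO replicate 1 (log2 -1.06, adjusted p = 0.0646).

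The last calls rest on more libraries. At Rhbdd1 the difference was 1.49 (adjusted p = 0.0437), lost without GKAO control replicate 1 or 3, G9a cKO replicate 1 or 3, GKAQ control replicate 2 or cDKO replicate 1 or 2 (log2 1.35 to 1.61, adjusted p = 0.0586 to 0.178). At Chrac1 (Ago2) it was -0.999 (adjusted p = 0.0431), lost without GKAO control replicate 1, 2 or 3, G9a cKO replicate 1, 2 or 3, GKAQ control replicate 2 or 3 or cDKO replicate 1 (log2 -0.92 to -1.05, adjusted p = 0.0527 to 0.182). At Tm7sf3 (Med21) it was 1.00 (adjusted p = 0.0335), lost without GKAO control replicate 3, G9a cKO replicate 3, GKAQ control replicate 3 or cDKO replicate 1 or 2 (log2 0.86 to 1.02, adjusted p = 0.0772 to 0.149). At A930005H10Rik, whose locus is Dph5 of diphthamide synthesis, it was -2.53 (adjusted p = 0.0333), lost without GKAO control replicate 2, G9a cKO replicate 1 or 3, GKAQ control replicate 3 or cDKO replicate 1 or 2 (log2 -2.13 to -2.56, adjusted p = 0.0616 to 0.194). There G9a cKO had 6.68, 3.82 and 10.8 RPM against 4.80, 2.09 and 4.69 in controls, and cDKO 3.42 and 3.56 against 10.7, 8.75 and 14.8.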

How the results depend on the processing

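On log2(RPM + 1) the loci called numbered 4 in G9a cKO, 93 in cDKO, 2 for the difference and 77 between the control groups, and without a variance trend 11, 67, 2 and 15. With voom weights on the recovered reads 38 were called in G9a cKO and 24 for the difference, and with all controls pooled 158 in G9a cKO. Of the loci with no matching RefSeq gene, a choice added after seeing the data, 14, 49, 9 and 37 were called. The labels give no replicate numbers. With the title number as a block, which only 1 cDKO and 1 control library of the GKAQ series share, 48 loci were called in cDKO, 13 for the difference and 0 ratios in cDKO, and the contrast between control groups could not be estimated. Ratios called without a variance trend numbered 2 in G9a cKO and 16 in cDKO, and with the trend on the mean difference, added after seeing the data, 2 and 18. H3K9me2 windows called in G9a cKO numbered 584 over all windows and 101 with at least 10 reads, and in cDKO 184 over all windows.

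Leaving out each library in turn gave 43 to 86 loci in G9a cKO, 119 to 252 in cDKO, 30 to 158 for the difference and 173 to 294 between the control groups. It gave 0 to 1 ratios in G9a cKO and 18 to 49 in cDKO, and 0 to 436 and 0 to 12 windows. Of 103 called values at named loci and their sense loci 16 kept direction and call in each alternative, 87 lost the call in at least 1, and 1 changed sign, Gm16832 in cDKO (log2 -0.14 with all controls pooled). The causes were not tested. In the shallowest RNA library 3 reads, the limit of detection used here, are 2.06 RPM. This is a limit on levels and not on the size of a change.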
